A study of Mus musculus with 6 samples.

Results

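The genes described here are chemokine receptors in naive CD8 T cells. They were chosen by name from a list of 9 receptors, and 6 of the 9 were found among the 11162 genes of the expression table: Ccr7, Ccr9, Cxcr3, Cxcr4, Cxcr5 and Ccr4. Ccr2, Cx3cr1 and Ackr3 were not analysed here. Of 16 further chemokine receptors, Cxcr6 and Ccrl2 were found, which made 8 receptors in all. RNA had been sequenced from CD8 T cells of mouse spleen, sorted as naive cells by surface markers that included CD44lo and Qa2hi. All the mice carried the transgene Tg(Nr4a1-EGFP)GY139Gsat, called Nur77-GFP, in which the regulatory region of Nr4a1 drives green fluorescent protein. All the sorted cells were also labelled OT-I, a transgenic T-cell receptor. Whether every cell had a single antigen specificity was not tested. Reporter brightness divided the cells into Nur77-GFP-hi (GFP-hi, 3 libraries) and Nur77-GFP-lo (GFP-lo, 3 libraries), and no other treatment separated the groups. The labels gave neither the age of the mice nor whether a library came from 1 mouse or several, so p-values measure only the spread between these libraries, which may in part be technical.

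Chemokine receptors are G-protein-coupled receptors of the cell surface that read gradients of small secreted proteins and steer migrating leukocytes. Ligand binding activates Gi proteins, whose beta-gamma subunits switch on phosphoinositide 3-kinase gamma and phospholipase C, and the receptor is then shut off by G-protein-coupled receptor kinases, arrestins and regulators of G-protein signalling. Naive T cells use Ccr7 to enter lymph nodes, whereas receptors such as Cxcr3 are better known from effector and memory cells and Ccr9 from thymocytes and from cells that home to the small intestine.

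Values were RPKM, reads scaled to gene length and to library depth, so levels could be compared between genes. Recovered library depths ran from 26170000 to 35940000 reads. The naive CD8 markers were abundant in every library, led by Cd8b1 at 785 to 839 RPKM. GFP-hi replicate 2 and GFP-lo replicate 2 stood apart from the other 4 libraries by heat-shock transcripts, with 1904 and 2133 RPKM of Hspa1b against 344 to 503 RPKM, and the fold changes of the tested receptors and of the genes that passed the threshold were also computed without these 2 libraries. The median RPKM of 41 nasal receptor genes, which T cells are not known to use, was 0.037 in GFP-hi replicate 2 and 0.038 in GFP-lo replicate 1, against 0.263 to 0.583 in the other libraries.

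Ccr7, the receptor for Ccl19 and Ccl21, was by far the most abundant receptor transcript in both populations, with 304 ± 108 RPKM in the GFP-hi population and 345 ± 149 RPKM in the GFP-lo population (SD, n = 3 each). Its mean level was above that of 99.7% of all listed genes. In GFP-hi cells the order of mean levels below it was Cxcr6 (27.0 RPKM), Ccr9 (18.1 RPKM), Cxcr4 (11.8 RPKM), Cxcr3 (10.2 RPKM), Cxcr5 (1.69 RPKM), Ccr4 (0.964 RPKM) and Ccrl2 (0.563 RPKM). In GFP-lo cells Cxcr3 stood higher in the order, which ran Cxcr6 (34.0 RPKM), Cxcr3 (25.7 RPKM), Cxcr4 (14.7 RPKM), Ccr9 (10.97 RPKM), Cxcr5 (2.54 RPKM), Ccr4 (0.624 RPKM) and Ccrl2 (0.577 RPKM). Neighbours in these orders whose libraries overlapped were Cxcr4 and Cxcr3 in GFP-hi cells. In GFP-lo cells Cxcr6 overlapped Cxcr3, Cxcr4 overlapped both Cxcr3 and Ccr9, and Ccr4 overlapped Ccrl2. The plot of receptor levels shows each library.

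**Figure D1:**
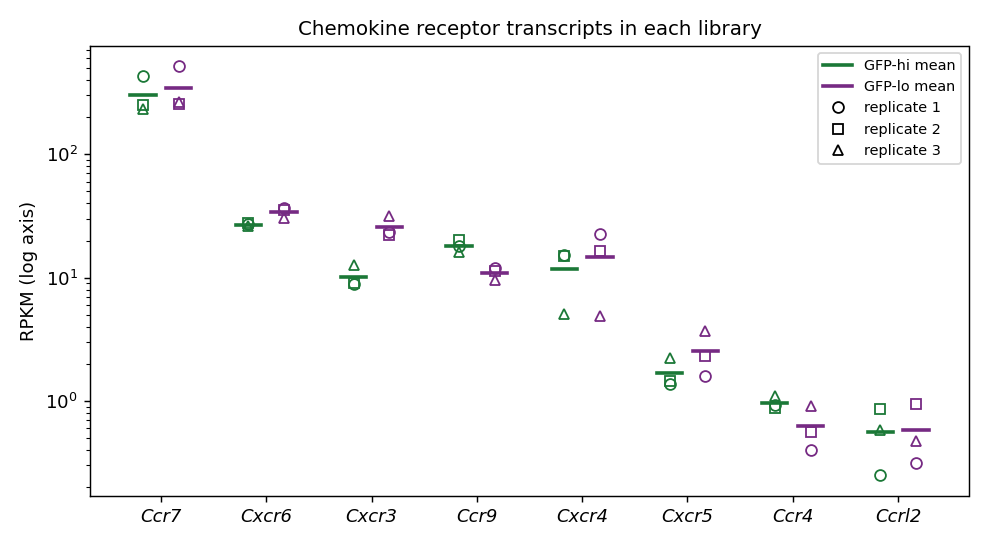
RPKM of the 8 listed chemokine receptors (logarithmic axis) in each of 3 GFP-hi and 3 GFP-lo libraries, with the group mean as a bar and the replicate as the symbol shape. The groups are separate for Cxcr3, Ccr9 and Cxcr6 and overlap for the other 5 receptors.

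The study asked how gene expression of naive CD8 T cells differs with reporter brightness. Cxcr3 was lower and Ccr9 higher in GFP-hi cells, and these were the only receptors among the 6 tested whose difference passed the threshold of an adjusted p under 0.05 (limma on log2(RPKM + 1) with Benjamini-Hochberg adjustment over all 9351 genes tested). Over all genes tested, 3.95% passed, 2.46% as higher and 1.49% as lower in GFP-hi. Of the 6 listed members, 5 reached the minimum mean of 1 RPKM and were tested, and 1 of these was higher and 1 lower; Ccr4 fell below the minimum. The median log2 fold change of the 5 tested members was -0.21, beside 0.02 over all genes tested. Groups did not overlap for 2 of the 5 members, beside 26.9% of all genes tested (17.1% with higher and 9.84% with lower GFP-hi libraries).

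**Figure D2:**
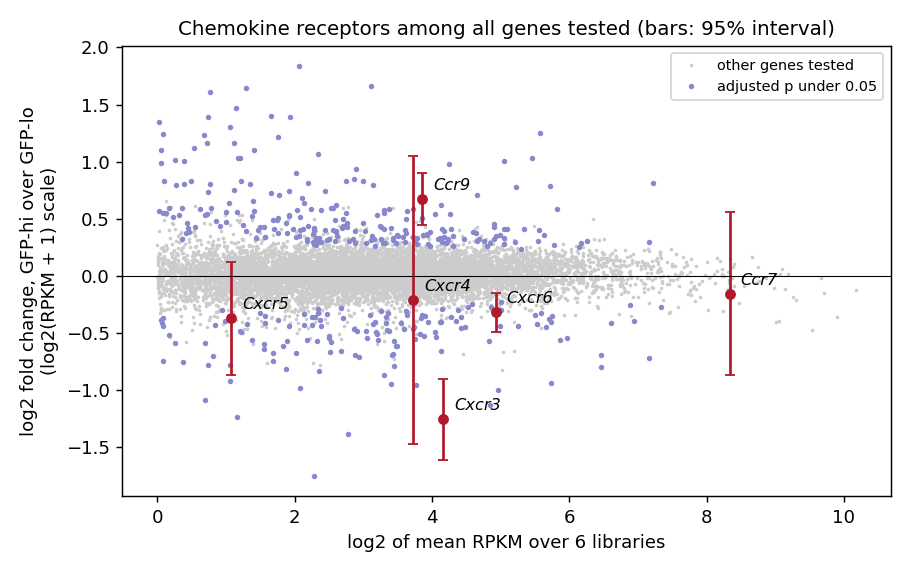
Log2 fold change of GFP-hi over GFP-lo on the log2(RPKM + 1) scale against log2 of the mean RPKM for all 9351 genes tested (grey, with genes at an adjusted p under 0.05 in blue) and for the 6 tested receptors (red, with 95% intervals). Cxcr3 lies at -1.26 and Ccr9 at 0.67, whereas the intervals of Ccr7, Cxcr4 and Cxcr5 include 0.

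Cxcr3 (Entrez 12766), which encodes the receptor for the interferon-induced chemokines Cxcl9 and Cxcl10, had 8.87, 9.12 and 12.6 RPKM in the 3 GFP-hi libraries and 23.5, 22.3 and 31.4 RPKM in the 3 GFP-lo libraries. Each GFP-lo library was thus well above each GFP-hi library, and replicate 3 was the highest of its group in both populations. Mean Cxcr3 was 10.2 ± 2.08 RPKM against 25.7 ± 4.93 RPKM (SD, n = 3 each), 2.52 times as much in GFP-lo. On the log2 scale this came to -1.26 (SE 0.16, 95% interval -1.61 to -0.90), with a limma adjusted p of 0.0054. By this measure Cxcr3 had rank 3 among the 139 genes that were lower in GFP-hi cells. The Cxcr3 values corresponded to whole reads of a transcript of 1731 bases, namely 437, 536 and 642 reads in GFP-hi and 1464, 1095 and 1421 reads in GFP-lo libraries, so counting error was small beside the spread between libraries. In bulk RNA, fewer cells that express a gene and less RNA in each cell cannot be told apart. The call held without any 1 library, with adjusted p values from 0.0037 to 0.030 (limma). In the 4 libraries with lower heat-shock transcripts the log2 fold change was -1.28 with an adjusted p of 0.05001 (limma), just on the other side of the threshold, and over the 19 alternatives the adjusted p ran from 0.0037 to 0.05001.

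Ccr9 (Entrez 12769), the receptor for Ccl25, a chemokine of thymus and small intestine, went the other way. It had 18.1, 20.03 and 16.1 RPKM in GFP-hi libraries and 11.99, 11.3 and 9.64 RPKM in GFP-lo libraries. The lowest GFP-hi library was above the highest GFP-lo library, and replicate 3 was the lowest of its group in both populations. Mean Ccr9 was 18.1 ± 1.96 RPKM against 10.97 ± 1.20 RPKM (SD, n = 3 each), 1.65 times as much in GFP-hi. On the log2 scale this came to 0.67 (SE 0.098, 95% interval 0.45 to 0.90), with a limma adjusted p of 0.010. Among the 230 genes that were higher in GFP-hi cells its rank by fold change was 54. The call held without any 1 library (limma adjusted p from 0.013 to 0.042). It was lost in the 4 libraries with lower heat-shock transcripts, where the log2 fold change was 0.62 (limma adjusted p = 0.077), and the adjusted p ran from 0.0026 to 0.077 over the 19 alternatives.

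The ratio of Ccr9 to Cxcr3 within a library does not depend on how libraries were scaled. It was 2.04, 2.20 and 1.28 in GFP-hi and 0.509, 0.506 and 0.307 in GFP-lo libraries. Ccr9 was therefore the more abundant of the pair in each GFP-hi library and the less abundant in each GFP-lo library. The mean ratio was 1.84 ± 0.490 against 0.441 ± 0.116 (SD, n = 3 each), a description only, since the pair was chosen for its opposite differences.

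**Figure D3:**
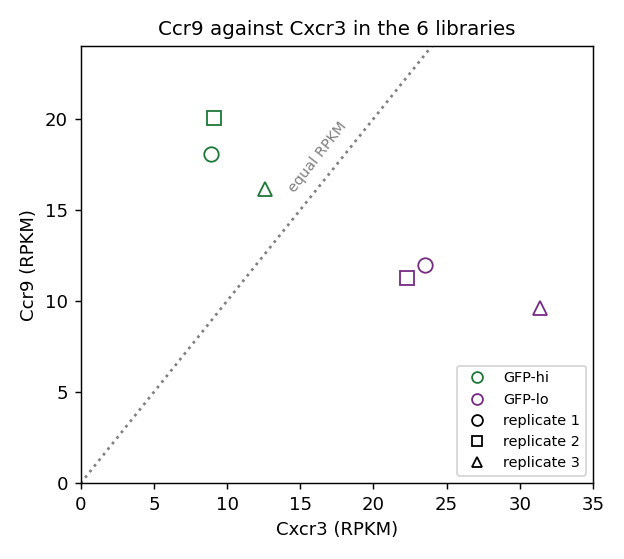
Ccr9 RPKM against Cxcr3 RPKM in the 6 libraries, coloured by population and shaped by replicate, with a dotted line of equal RPKM. The 3 GFP-hi libraries lie above the line, with ratios from 1.28 to 2.20, and the 3 GFP-lo libraries lie below it, with ratios from 0.307 to 0.509.

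**Figure D4:**
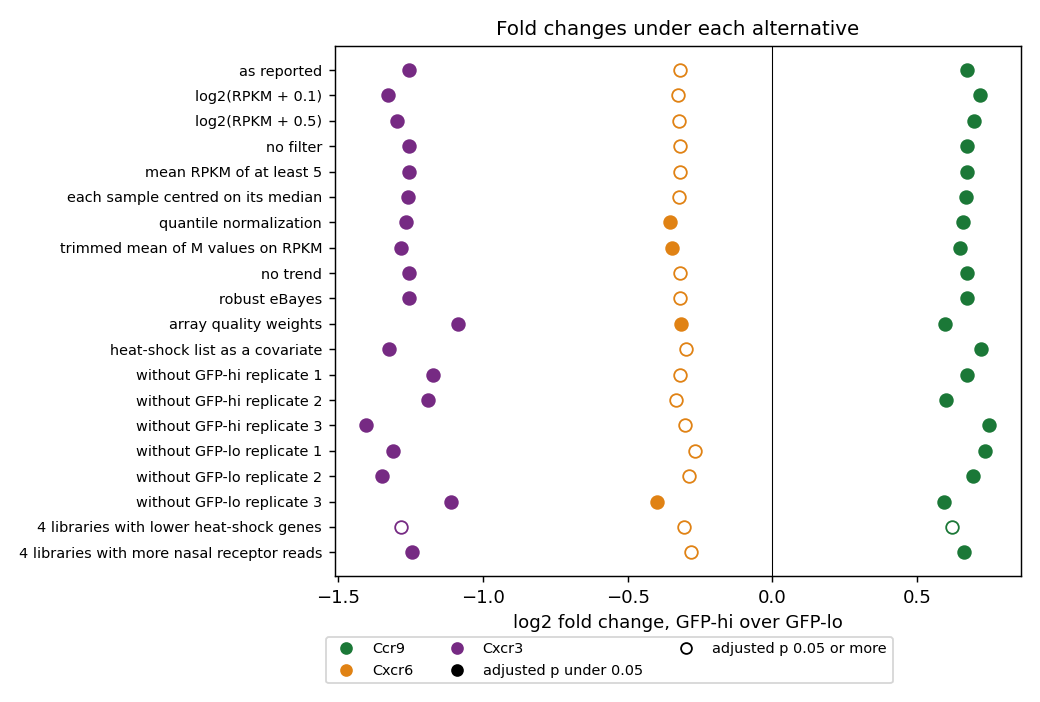
Log2 fold changes of Ccr9, Cxcr6 and Cxcr3 (GFP-hi over GFP-lo) as reported and under each of 19 alternatives, filled where the adjusted p was under 0.05. Cxcr3 ranges from -1.40 to -1.09, Ccr9 from 0.59 to 0.75 and Cxcr6 from -0.40 to -0.27.

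Promoters of these oppositely moving receptors are shown because their start sites are where transcription of each gene begins. The sequences are from RefSeq on build GRCm38.p6, which is the mm10 assembly named in the submitters' processing notes, and hold the 250 bases before each start site, 5′ to 3′ on the strand of the gene. Promoters were found for 6 of the 8 listed receptors, all but Ccr7 and Cxcr5. Capitals mark matches on either strand to any of 6 motifs: NBRE, the element bound by Nr4a proteins (AAAGGTCA), T-box (TCACAC), RUNX (TGTGGT), E-box (CAGGTG), forkhead (TGTTTA) and KLF (CCACCC).
Cxcr3, chrX:101734148-101734397, minus strand: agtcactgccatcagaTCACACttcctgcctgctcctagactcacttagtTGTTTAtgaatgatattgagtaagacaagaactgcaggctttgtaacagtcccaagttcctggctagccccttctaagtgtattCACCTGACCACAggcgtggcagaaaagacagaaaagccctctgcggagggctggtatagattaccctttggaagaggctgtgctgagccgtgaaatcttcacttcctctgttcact
Ccr9, chr9:123766961-123767210, plus strand: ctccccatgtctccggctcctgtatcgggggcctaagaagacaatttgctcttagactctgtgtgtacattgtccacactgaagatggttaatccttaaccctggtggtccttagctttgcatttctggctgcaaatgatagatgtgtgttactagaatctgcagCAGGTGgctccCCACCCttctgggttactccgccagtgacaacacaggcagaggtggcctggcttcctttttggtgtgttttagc

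The Cxcr3 window held 1 T-box match starting 234 bases before the start site and 1 forkhead match 200 bases before it. It also held 1 E-box match and 1 RUNX match side by side, without overlap, which begin 116 and 110 bases before the start. The Ccr9 window held 1 E-box match 85 bases and 1 KLF match 74 bases before the start. Neither window held the NBRE letters. Over 32851 RefSeq promoters of the same length, an E-box match was present in 17.2%, a RUNX match in 14.05%, a T-box match in 12.3%, a forkhead match in 12.03%, a KLF match in 28.1% and an NBRE match in 1.34%. The promoters counted did not cover every chromosome. All matches given here are of letters only.

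Ccr7 (Entrez 12775), the lymph node entry receptor, had 429, 251 and 233 RPKM in GFP-hi libraries and 516, 253 and 264 RPKM in GFP-lo libraries. Replicate 1 was high in both populations and the groups overlapped. For Ccr7 the log2 difference was -0.15 (SE 0.31, 95% interval -0.87 to 0.56), with a limma adjusted p of 0.83. The within-group SD of Ccr7 was 0.53 (log2(RPKM + 1) scale), above the SD of 99.3% of the genes tested, and the median gene had 0.090, so a difference of this size was not detectable in this unpaired comparison. Its sign turned when GFP-hi replicate 3 (0.01) or GFP-lo replicate 1 (0.18) was left out.

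Cxcr4 (Entrez 12767), the receptor for Cxcl12, a chemokine of bone marrow and lymphoid stroma, varied still more. It had 15.3, 15.1 and 5.04 RPKM in GFP-hi libraries and 22.6, 16.6 and 4.87 RPKM in GFP-lo libraries. Replicate 3 was the low library of both populations, and the groups overlapped. For Cxcr4 the log2 difference was -0.21 (95% interval -1.47 to 1.05), with a limma adjusted p of 0.88. The within-group SD of 0.95 on the log2(RPKM + 1) scale exceeded that of 99.8% of tested genes. When GFP-hi replicate 3 or GFP-lo replicate 1 was left out the sign turned (0.27 and 0.20), and the difference was -0.81 when GFP-lo replicate 3 was left out. The replicate numbers were assigned here in record order and are names only, and whether libraries were sorted together is not given in the sources used here.

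Cxcr5 (Entrez 12145), which guides lymphocytes into B-cell follicles along Cxcl13, was low, with 1.36, 1.45 and 2.25 RPKM in GFP-hi and 1.59, 2.31 and 3.73 RPKM in GFP-lo libraries. The groups overlapped, and the log2 difference was -0.37 (95% interval -0.86 to 0.13), with a limma adjusted p of 0.39. Ccr4 (Entrez 12773), a receptor for Ccl17 and Ccl22 best known from skin-homing and regulatory T cells, had 0.924, 0.872 and 1.10 RPKM in GFP-hi and 0.400, 0.560 and 0.912 RPKM in GFP-lo libraries. The highest GFP-lo library lay within the GFP-hi range. In the fit without a minimum level the log2 difference of Ccr4 was 0.28 (95% interval -0.0040 to 0.57), with a limma adjusted p of 0.28.

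Of the receptors outside the list of members, Cxcr6 (Entrez 80901), which binds Cxcl16 and is known from tissue-resident T cells, had 27.0, 27.5 and 26.3 RPKM in GFP-hi and 36.4, 35.3 and 30.2 RPKM in GFP-lo libraries. All 3 GFP-hi libraries were below the lowest GFP-lo library. The log2 difference of -0.32 (SE 0.074) missed the threshold, with a limma adjusted p of 0.059. It passed with quantile normalization (limma adjusted p = 0.031), array quality weights (0.012) and trimmed mean of M values scaling (0.045), and without GFP-lo replicate 3 (0.032), and the adjusted p ran from 0.012 to 0.22 over the alternatives. Ccrl2 (Entrez 54199), an atypical receptor that binds chemerin without signalling, had 0.250, 0.857 and 0.583 RPKM in GFP-hi and 0.315, 0.943 and 0.472 RPKM in GFP-lo libraries, with overlapping groups. In the fit without a minimum level its log2 difference was -0.01 (95% interval -0.44 to 0.42), with a limma adjusted p of 1.0.

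Many receptor genes lie together on chromosome 9. Ccr9 (chr9:123767211-123783457) and Cxcr6 (chr9:123806477-123811754) were separated by 23 kilobases on the RefSeq annotation, yet Ccr9 was higher and Cxcr6 had lower values in GFP-hi cells. Cxcr6 lies inside the interval of Fyco1, so unless reads were counted by strand, which is not given in the sources used here, reads of these genes may have been shared. Fyco1 had 8.44 to 10.5 RPKM in GFP-hi and 9.98 to 11.1 RPKM in GFP-lo libraries. On the other side, 49.6 kilobases away, Lztfl1 had 2.49, 2.70 and 2.54 RPKM in GFP-hi and 1.71, 2.08 and 1.97 RPKM in GFP-lo libraries, separate groups that differed by 0.30 on the log2 scale (limma adjusted p = 0.075). It passed with array quality weights (limma adjusted p = 0.026) and with the heat-shock list as a covariate (0.038), and the highest adjusted p over the alternatives was 0.20. Sacm1l and 2010315B03Rik did not pass (limma adjusted p of 0.61 and 0.86), and Slc6a20b had at most 0.293 RPKM. Around Cxcr3 on the X chromosome the 3 nearest listed genes on each side, Nono, Taf1, Ogt, Pin4, Ercc6l and Rps4x, had limma adjusted p values from 0.16 for Pin4 to 0.97 for Rps4x.

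As a share of the summed RPKM of the 8 receptors in the same library, Ccr7 made up 85.7%, 77.0% and 78.4% in GFP-hi and 84.2%, 74.0% and 76.5% in GFP-lo libraries. The share of Cxcr3 was 1.77%, 2.80% and 4.25% in GFP-hi and 3.84%, 6.50% and 9.09% in GFP-lo libraries, so the groups overlapped on this scale (exact two-sided permutation test, p = 0.2). Ccr9 held 3.61%, 6.15% and 5.44% in GFP-hi and 1.96%, 3.29% and 2.79% in GFP-lo libraries, which did not overlap (exact two-sided permutation test, p = 0.1, the smallest possible). The denominator is mostly Ccr7, and its high level in replicate 1 of both groups lowered all other shares there. No other receptor had an exact p below 0.2.

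Among the ligands, 5 of 39 chemokine genes were analysed here and 4 were tested, and none passed the threshold in either direction (median log2 fold change 0.10, beside 0.02 over all genes tested). At an unadjusted p under 0.05, 3 of the 4 would have passed, Ccl25, Ccl4 and Ccl5, beside 20.2% of all genes tested. Ccl25, the Ccr9 ligand, had 1.63, 1.84 and 1.91 RPKM in GFP-hi and 1.18, 1.24 and 1.51 RPKM in GFP-lo libraries, groups that did not overlap and differed by 0.28 on the log2 scale (limma adjusted p = 0.12). With array quality weights it passed (limma adjusted p = 0.033), and the adjusted p reached 0.37 over the alternatives. Ccl4, an inflammatory chemokine, had 4.42 to 5.09 RPKM in GFP-hi and 3.99 to 4.27 RPKM in GFP-lo libraries (limma, adjusted p = 0.21). Ccl5, an inflammatory chemokine made by memory and effector T cells, had 3.16 to 4.56 RPKM in GFP-hi and 4.15 to 6.94 RPKM in GFP-lo libraries (limma, adjusted p = 0.24). Cxcl10, a Cxcr3 ligand, had 0.767 to 1.47 RPKM and 0.724 to 1.29 RPKM (limma, adjusted p = 0.94), and Cxcl16, the Cxcr6 ligand, stayed below the minimum level.

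Genes that carry the receptor signal were read next. Of 13 G-protein and effector genes tested, 1 was higher and 1 lower (median log2 fold change -0.02), beside 2.46% and 1.49% of all genes tested. Pik3r5, the p101 regulatory subunit of phosphoinositide 3-kinase gamma, fell in GFP-hi cells, with 44.6, 44.4 and 47.4 RPKM against 65.0, 56.7 and 60.1 RPKM, a log2 difference of -0.41 (limma adjusted p = 0.014). Gng2, a G-protein gamma subunit, rose, with 7.17, 6.66 and 7.21 RPKM against 5.53, 5.08 and 5.29 RPKM, a log2 difference of 0.35 (limma adjusted p = 0.021). The Pik3r5 call was lost without GFP-hi replicate 1 (limma adjusted p = 0.064), without GFP-lo replicate 3 (0.061) and without both replicates 2 (0.056). That of Gng2 was lost without GFP-hi replicate 1 (0.087) or 3 (0.091), GFP-lo replicate 2 (0.093) or 3 (0.082) and without both replicates 2 (0.082). The main Gi subunit Gnai2, at 89.6 to 97.7 RPKM in GFP-hi and 81.8 to 85.1 RPKM in GFP-lo libraries, did not pass (limma, adjusted p = 0.17), nor did Gnai3, Gnb1 or Gna13.

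Of 12 tested genes that switch receptors off, 1 was higher and none lower (median log2 fold change 0.05), beside 2.46% and 1.49% of all genes tested. The higher gene was Rgs3, a regulator that speeds the inactivation of G proteins. Rgs3 had 12.2, 9.68 and 11.2 RPKM in GFP-hi and 8.37, 8.04 and 7.13 RPKM in GFP-lo libraries, a log2 difference of 0.44 (limma adjusted p = 0.040). The call was kept without GFP-hi replicate 2 (limma adjusted p = 0.019) and lost without each of the other 5 libraries (0.076 to 0.13), without both replicates 2 (0.068) and with trimmed mean of M values scaling (0.060). The kinases Grk6 and Grk2, the regulator Rgs14 and the arrestin Arrb2 did not pass (limma adjusted p of 0.87, 0.51, 0.87 and 0.64). None of 29 tested genes of cell motility and integrin activation passed in either direction (median log2 fold change 0.04). Among them were Coro1a, Itgb7, Rac2 and Cdc42 with 200 to 349 RPKM. At an unadjusted p under 0.05 (limma), 6 of the 29 would have passed, beside 20.2% of all genes tested. With array quality weights 5 of the 29 were higher, beside 783 of all 9351 genes tested. With the heat-shock list as a covariate 1 was higher and 1 lower, beside 578 and 265 of all genes tested. With the 4 libraries richer in nasal receptor reads 1 was higher, beside 264 of all genes tested.

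Of 11 tested genes of lymphoid recirculation 1 was higher and none lower (median log2 fold change -0.05), beside 2.46% and 1.49% of all genes tested. The higher gene was Itgae, which encodes CD103, the integrin chain that binds E-cadherin of epithelia, with 73.9, 67.9 and 60.7 RPKM in GFP-hi against 31.6, 25.9 and 25.9 RPKM in GFP-lo libraries, a log2 difference of 1.25 (limma adjusted p = 0.00087). S1pr1, the egress receptor, the selectin ligand Selplg and Klf2, a transcription factor that maintains S1pr1, did not pass (limma adjusted p of 0.62, 0.96 and 0.55).

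Of 24 tested transcription factors linked to trafficking receptors, 2 were higher and none lower (median log2 fold change 0.01), beside 2.46% and 1.49% of all genes tested. Id2, an inhibitor of E proteins, had 36.6, 38.4 and 33.0 RPKM in GFP-hi and 28.9, 28.9 and 25.5 RPKM in GFP-lo libraries (log2 fold change 0.36, limma adjusted p = 0.040). Bcl6, a repressor known from follicular T cells that express Cxcr5, had 2.34, 2.29 and 2.79 RPKM against 1.75, 1.39 and 1.38 RPKM (log2 fold change 0.47, limma adjusted p = 0.031). Both calls were lost in the 4 libraries with lower heat-shock transcripts (limma adjusted p of 0.15 and 0.14). Id2 lost its call without each single library other than GFP-hi replicate 3 (0.080 to 0.13) and with the 4 libraries richer in nasal receptor reads (0.065), and Bcl6 lost it without GFP-hi replicate 1 (0.086) or 3 (0.11) and without GFP-lo replicate 2 (0.12) or 3 (0.11). Tbx21, which encodes T-bet, an activator of Cxcr3 in effector cells, had 4.70, 8.55 and 5.50 RPKM in GFP-hi and 6.50, 9.04 and 4.87 RPKM in GFP-lo libraries, with overlapping groups (limma, adjusted p = 0.84). Eomes, its relative, had 5.49 to 8.14 RPKM and 5.86 to 7.68 RPKM (limma, adjusted p = 0.97).

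Markers of cells that carry Cxcr3 or Ccr9 elsewhere were read beside these results. Of 14 memory-like CD8 markers 10 were analysed here and 9 tested, with Id2 higher and Il18rap lower, beside 2.46% and 1.49% of all genes tested. Of the 9 fold changes 6 were negative, beside 4164 of 9351 over all genes tested, and the median was -0.06. At an unadjusted p under 0.05 (limma), 6 of the 9 would have passed, beside 20.2% of all genes tested. Groups did not overlap for 5 of the 9, beside 26.9% of all genes tested. The summed level of the memory-like markers was 454 to 467 RPKM in GFP-hi and 426 to 443 RPKM in GFP-lo libraries, most of it Nkg7. Il18rap, a chain of the interleukin 18 receptor, had 0.755, 0.929 and 1.19 RPKM against 1.83, 2.44 and 2.84 RPKM (log2 fold change -0.78, limma adjusted p = 0.017), and its call was lost when GFP-hi replicate 1 (0.066), both replicates 2 (0.14) or, of the GFP-lo libraries, the second (0.072) or the third (0.055) was left out. The list was led by Nkg7, at 298 to 316 RPKM in GFP-hi and 276 to 284 RPKM in GFP-lo libraries, and Il2rb. Il2rb had 79.4, 69.5 and 75.1 RPKM in GFP-hi and 68.6, 61.5 and 56.4 RPKM in GFP-lo libraries. These groups did not overlap, with GFP-hi higher (log2 difference 0.26, limma adjusted p = 0.13). Ly6c2, a surface protein of memory cells, had 17.03, 21.6 and 31.1 RPKM in GFP-hi and 31.4, 41.5 and 51.8 RPKM in GFP-lo libraries, so the groups narrowly did not overlap (log2 difference -0.82, limma adjusted p = 0.094). Klrk1, an activating receptor below the minimum level, had 0.216 to 0.469 RPKM in GFP-hi and 0.479 to 0.726 RPKM in GFP-lo libraries. Cd44, the marker of the sort, had 2.17 to 2.37 RPKM in GFP-hi and 2.32 to 2.62 RPKM in GFP-lo libraries. The part of memory-like cells in the Cxcr3 difference was not tested.

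Of 10 thymocyte markers 6 were analysed here and 4 tested, with Cd24a higher and none lower, 2 fold changes of each sign and a median of -0.0054, and their summed level was 57.6 to 64.3 RPKM in GFP-hi and 56.7 to 59.7 RPKM in GFP-lo libraries. Cd24a, a surface protein lost as T cells mature, had 4.56, 7.03 and 3.49 RPKM against 0.902, 1.82 and 1.03 RPKM (log2 fold change 1.40, limma adjusted p = 0.014), a call lost without GFP-lo replicate 1 (0.062) and without GFP-lo replicate 3 (0.055). Dntt, the terminal transferase of thymocytes, had 1.07, 1.48 and 1.42 RPKM in GFP-hi and 1.75, 2.34 and 2.02 RPKM in GFP-lo libraries, separate groups in the other direction that missed the threshold (log2 difference -0.39, limma adjusted p = 0.083). The list was led by Themis and Cd1d1, and the recombinase gene Rag1 had at most 0.673 RPKM in any library. The part of less mature cells in the Ccr9 difference was not tested. Of the naive list all 13 genes were tested, with Il7r lower (log2 fold change -0.80, limma adjusted p = 0.0022) and none higher, and it was led by Cd8b1 and Tcf7. Of 6 CD4 T-cell markers 3 were tested, with Izumo1r higher (log2 fold change 1.17, limma adjusted p = 0.00087) and Cd40lg lower (-1.13, limma adjusted p = 0.011). The third, Ctla4, did not pass (log2 fold change 0.53, limma adjusted p = 0.16), and Cd4, Foxp3 and Zbtb7b were not analysed here. Over all genes tested 2.46% were higher and 1.49% lower. The B-cell list was led by Cd79b at 10.6 to 14.1 RPKM and Ms4a1 at no more than 0.597 RPKM, the myeloid list by Cst3 at 18.4 to 24.5 RPKM and Ly6c1, and the natural killer list by Klrd1 at 62.2 to 72.6 RPKM. Of their named markers 3 of 10, 3 of 13 and 2 of 6 were analysed here. No gene of these 3 lists passed the threshold (limma), and 2 of their 5 tested genes, Cd79b and Ly6c1, had an unadjusted p under 0.05, beside 20.2% of all genes tested. Cd79b had 12.02, 14.1 and 13.3 RPKM in GFP-hi and 11.1, 10.6 and 10.6 RPKM in GFP-lo libraries. These groups did not overlap (log2 difference 0.26, limma adjusted p = 0.075). Ly6c1, a close copy of Ly6c2 whose reads may have been shared with it, had 1.08 to 1.98 RPKM in GFP-hi and 2.13 to 3.11 RPKM in GFP-lo libraries (log2 difference -0.52, limma adjusted p = 0.10). Of 22 tested genes of dissociation stress and heat shock, 19 had negative fold changes, with a median of -0.27 beside 0.02 over all genes tested, and 1 was lower and none higher. The lower gene, Socs3, an inhibitor of cytokine signalling, had 27.3 to 45.6 RPKM in GFP-hi and 63.4 to 76.9 RPKM in GFP-lo libraries (log2 difference -0.93, limma adjusted p = 0.021). The Socs3 call was lost in 4 of the 19 alternatives, with a limma adjusted p of up to 0.083. Junb, an early-response transcription factor, had 542 to 750 RPKM in GFP-hi and 808 to 944 RPKM in GFP-lo libraries (log2 difference -0.47, limma adjusted p = 0.080). With the list's level as a covariate the log2 difference was -1.32 for Cxcr3 (limma adjusted p = 0.0077) and 0.72 for Ccr9 (limma adjusted p = 0.010).

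The genes whose levels followed a receptor most closely over the 6 libraries were found by Pearson's r of log2(RPKM + 1), given as a description. All 6 values share the same libraries, and a gene that differs between the populations resembles Cxcr3 or Ccr9 by that difference. For Cxcr3 they were Shisa5 (r = 0.997), Tnfsf8 (r = 0.995) and Slc28a2b (r = 0.993). Shisa5 had 203, 206 and 210 RPKM in GFP-hi and 224, 223 and 228 RPKM in GFP-lo libraries. Its difference was small and did not pass (log2 difference -0.12, limma adjusted p = 0.22). Tnfsf8, which encodes the ligand of CD30, had 7.52, 8.68 and 10.6 RPKM in GFP-hi and 17.2, 16.8 and 20.6 RPKM in GFP-lo libraries. For Ccr9 they were Gabrr2 (r = 0.998), Klhdc3 (r = 0.998) and Ndrg1 (r = 0.997). Ndrg1 had 5.39, 6.07 and 3.95 RPKM in GFP-hi and 1.91, 1.77 and 1.21 RPKM in GFP-lo libraries. For Ccr7 they were Rps6kc1 (r = 0.993), Tnfaip3 (r = 0.993) and Fbxo38 (r = 0.985). Tnfaip3, which encodes the NF-kB inhibitor A20, had 57.0, 39.1 and 38.7 RPKM in GFP-hi and 62.6, 40.9 and 39.3 RPKM in GFP-lo libraries, so it too was high in replicate 1 of both populations.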

How the data were processed

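RNA of 6 sorted samples, 3 GFP-hi and 3 GFP-lo, had been made into libraries with the SMART-seq v4 and Nextera XT kits, per the labels' protocols. The authors deposited RPKM per gene in 1 column for each sample, per the file headers. The submitters' processing notes name STAR and mm10; the counter, annotation, gene lengths and rule for listing genes are not given in the sources used here. Each column was tied to its sample through the title, and 15 symbols lost in the table were looked up by Entrez ID. Library depth was recovered from the step that 1 read makes in low RPKM values of genes with 1 GENCODE M21 transcript: 87.2% to 90.8% of 220 to 239 values per library lay within 0.1 of a whole read. PCR copies are among the reads, so intervals from counts cover counting error only.

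Genes with a mean of at least 1 RPKM were tested (9351 of 11162) with limma 3.58.1 in R 4.3.3 on log2(RPKM + 1), with a mean-variance trend and no covariate, two-sided, with Benjamini-Hochberg adjustment over all genes tested. Fold changes on this scale understate those of low genes. The fit was tested on simulated data. Figures were drawn with matplotlib 3.10.9. The members and lists were chosen with earlier results of these data known. Named genes are all listed receptors, ligands of at least 1 RPKM, called genes and up to 4 abundant genes of each pathway list, the 3 most alike genes of Ccr7, Ccr9 and Cxcr3 (predicted genes passed over), the 3 nearest listed genes on each side of Cxcr3 and Ccr9, and called genes and the 2 most abundant of each marker list; a gene of the recirculation list that the rule names is not reported here. Tbx21, Cd44, Ly6c2, Klrk1, Dntt, Rag1, Ctla4 and Cxcl16 were chosen after their values were seen, as was the ratio of Ccr9 to Cxcr3. The erythroid and platelet list had 1 gene, Hba-a1, at no more than 1.94 RPKM. Alternatives changed the pseudocount (0.1, 0.5), filter, scaling, variance model, covariate and libraries.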

Additional observations from a re-analysis of the deposited data

How the results depend on the processing

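Over 19 alternatives Cxcr3 stayed lower and Ccr9 higher in GFP-hi cells. Each lost its call in 1 of them, the 4 libraries with lower heat-shock transcripts. There the log2 fold changes were -1.28 and 0.62, beside -1.26 and 0.67 as reported. That fit left out replicate 2 of each group and called 101 genes in all, beside 369 as reported. Both calls were kept in the 4 libraries richer in nasal receptor reads (limma adjusted p of 0.028 for Cxcr3 and 0.020 for Ccr9). The cause of the lost calls was not tested. Cxcr6 gained a call with quantile normalization (-0.35), trimmed mean of M values scaling (-0.35), array quality weights (-0.32) and without GFP-lo replicate 3. With the 4 libraries richer in nasal receptor reads Ccr7 turned positive (0.29). Leaving out 1 library gave log2 fold changes from -1.40 to -1.11 for Cxcr3, 0.59 to 0.75 for Ccr9, -0.40 to -0.27 for Cxcr6, -0.43 to 0.18 for Ccr7, -0.81 to 0.27 for Cxcr4 and -0.57 to -0.14 for Cxcr5. For Cxcl10, with 0.03 as reported, the sign turned with quantile normalization (-0.025), and leaving out 1 library gave -0.092 to 0.15. Differences in share of receptor RPKM ranged over the same 6 fits from -0.51 to 5.14 percentage points for Ccr7, -1.13 to 0.58 for Cxcr4, -0.38 to 0.026 for Cxcr5, -1.95 to 0.34 for Cxcr6 and -0.036 to 0.076 for Ccrl2. The number of genes called, 369 as reported, was 202 at a minimum of 5 RPKM, 1282 with array quality weights, 843 with the heat-shock list as a covariate, 101 in the 4 libraries with lower heat-shock transcripts and 133 to 315 without 1 library. The first tests fewer genes and the last used 5 libraries. In the 4 libraries richer in nasal receptor reads it was 422, and the cause of the other changes was not tested. The share of called genes that were higher was 62.3%, and 51.9% with trimmed mean of M values scaling (201 higher, 186 lower). Scalings moved the median gene by less than 0.1 on the log2 scale. No pairing was fitted because the labels give no replicate numbers. Ccr7 was high in replicate 1 and Cxcr4 low in replicate 3 of both populations. An unpaired fit counts any variation that such libraries share as spread within groups, which can hide a difference. Whether these libraries were prepared together was not tested. Ccr4, Ccrl2 and Cxcr5 were low, with means of 0.794, 0.570 and 2.11 RPKM over the 6 libraries, and the part of this in their precision was not tested.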
